A study of Homo sapiens with 30 samples.

Results

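SW480 is a cell line from a human colorectal adenocarcinoma. Here 3 SW480 libraries labelled with a SETDB1 short hairpin and a KRT-positive sort were compared with 3 libraries of unsorted SW480 cells, over all genes. They are 6 of the 30 libraries in the study, which covers 3 colorectal cancer lines in 10 groups of 3, and the 3 SW480 libraries labelled with a SETDB1 hairpin and a KRT-negative sort are given beside them. Members were chosen by title, and values of symbols listed on more than 1 line were summed. Per the labels' protocols, cells were grown in DMEM with fetal bovine serum, transduced with retroviral hairpin vectors and selected with puromycin. The labels do not say which hairpin the unsorted cells carried, which keratin was stained in SW480, in which medium either group was kept, or whether replicates were separate cultures, so p-values measure the spread between these libraries. The labelled hairpin and the sort differ together between the groups, so their parts in a difference cannot be told apart. Labels of some Caco2 libraries in the study name a differentiation medium with the drug troglitazone and vitamin D. The SW480 labels give neither, so a difference in medium between the groups cannot be told apart from hairpin and sort.

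SETDB1 encodes a methyltransferase that places trimethylation on lysine 9 of histone H3, a mark of silent chromatin, at genes and repeats. KRT20 encodes keratin 20, an intermediate filament protein of the differentiated cells at the surface of the colon, and it is little expressed in the dividing cells of the crypt, which depend on Wnt signalling. A KRT-positive fraction of a colorectal cancer line is therefore read by colonocyte genes on one side and by Wnt target and cell cycle genes on the other.

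Expression was measured with QuantSeq, a 3′ tag method that primes on poly(A) tails and gives 1 tag per transcript whatever its length. Levels are CPM, a library's counts scaled to a common total with TMM factors, and the 3 values of a group are always those of libraries 1, 2 and 3. The 9 SW480 libraries held 6915326 to 10036179 counts, so that 3 counts, the level that a count of 0 allows, were 0.297 to 0.449 CPM (counting error only). Symbols with at least 1 count numbered 11972, 13649 and 12517 in the KRT-positive and 13321, 13115 and 12604 in the unsorted libraries. KRT-positive libraries 1 and 3 stood apart by genes at 0: 58 and 38 genes with at least 20 CPM in both other replicates had no count there. The same number was 6 in KRT-positive library 2, 1, 6 and 4 in the unsorted and 1, 0 and 3 in the KRT-negative libraries. As a share of such genes the difference between KRT-positive and unsorted libraries had an exact two-sided permutation p of 0.1, the smallest that 3 against 3 allows. Spearman correlations across symbols ran from 0.796 to 0.811 among the KRT-positive and from 0.865 to 0.899 among the unsorted libraries. Replicate 2 of each of the 3 SW480 groups had lower counts in genes of high GC content, with slopes of -0.144 to -0.265 log2 units per 10 points of GC content against 0.052 to 0.162 in replicates 1 and 3, so this trend was shared by the groups.

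**Figure D1:**
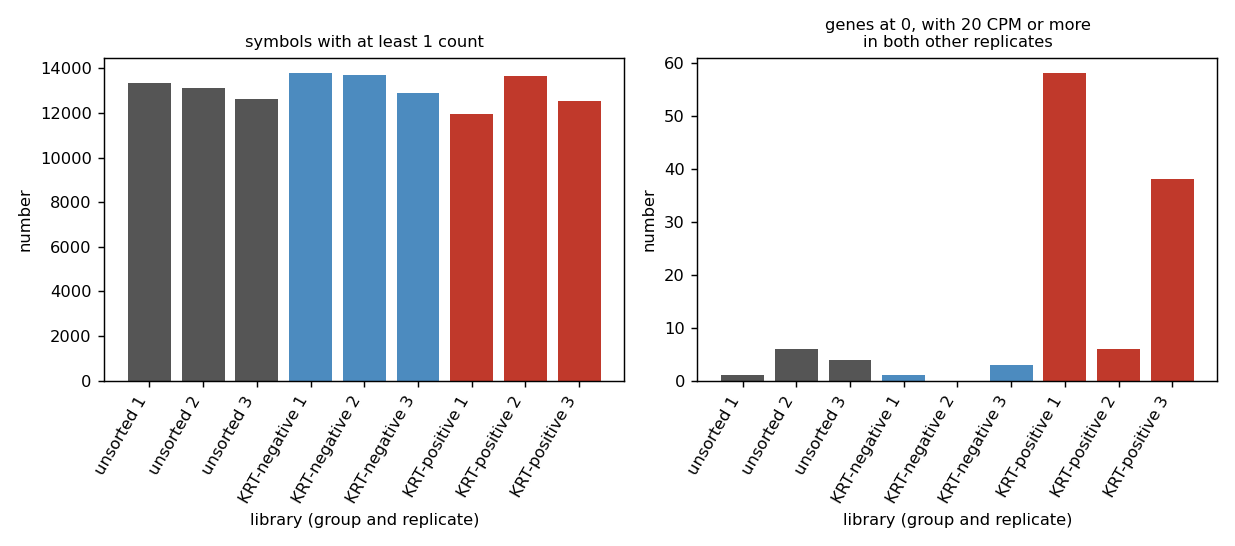
Bars show, for each of the 9 SW480 libraries, the number of symbols with at least 1 count (left) and the number of genes at 0 that have 20 CPM or more in both other replicates of the group (right). KRT-positive libraries 1 and 3 hold 58 and 38 such genes, and every other library holds 6 or fewer.

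KRT20 followed the KRT labels. KRT20 (GRCh38 chromosome 17, 40875941 to 40885227, minus strand) was at 75.1, 53.6 and 44.4 CPM in the KRT-positive libraries and had no count in the 3 unsorted libraries. With 3 counts over the unsorted group as the floor, it was at least 469.8-fold higher, a check of the labels and not a finding. In the KRT-negative libraries KRT20 was at 0, 0.666 and 0 CPM, so that 1 of the 3 held a few counts. The promoter of KRT20 is shown because this keratin gene had no count in the unsorted libraries (RefSeq, GRCh38.p14, chr17:40885193-40885492, minus strand, 250 bases before to 50 after the start, with matches to TTTAT on either strand in capitals, the core letters of sites for the intestinal CDX factors).
KRT20: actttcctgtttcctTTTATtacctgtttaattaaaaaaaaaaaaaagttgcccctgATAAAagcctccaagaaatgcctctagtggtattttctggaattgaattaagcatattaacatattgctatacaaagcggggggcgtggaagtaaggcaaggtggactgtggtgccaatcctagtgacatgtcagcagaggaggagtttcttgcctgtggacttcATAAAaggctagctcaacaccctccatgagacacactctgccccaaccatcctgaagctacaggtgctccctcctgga
It holds 3 matches that do not overlap, and 34.9% of 35116 promoters of this length hold at least 1. CDX2, the factor of intestinal identity, was at 300.4, 222 and 391 CPM in the KRT-positive and 342, 186 and 251 CPM in the unsorted libraries, and these ranges overlap (log2 fold change 0.23, edgeR adjusted p = 0.843).

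The targeted gene was low in 2 of the 3 KRT-positive libraries. SETDB1 (GRCh38 chromosome 1, 150926263 to 150964744, plus strand) was at 0, 0 and 12.1 CPM in the KRT-positive libraries and at 35.7, 35.9 and 15.03 CPM in the unsorted libraries. Library 3 of both groups lay close together, so the groups did not overlap but the difference was not called (log2 fold change -2.84, SE 1.90, edgeR adjusted p = 0.523). Without KRT-positive library 3 it was called lower (edgeR adjusted p = 0.0496), so this call rests on 1 library. The KRT-negative libraries were at 36.1, 0.222 and 3.13 CPM, and the library labelled KRT-negative 1 was at the level of the unsorted cells. ATF7IP, the partner that stabilises SETDB1, was at 91.3, 119 and 116 CPM against 100.5, 60.2 and 71.02 CPM and was not called.

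**Figure D2:**
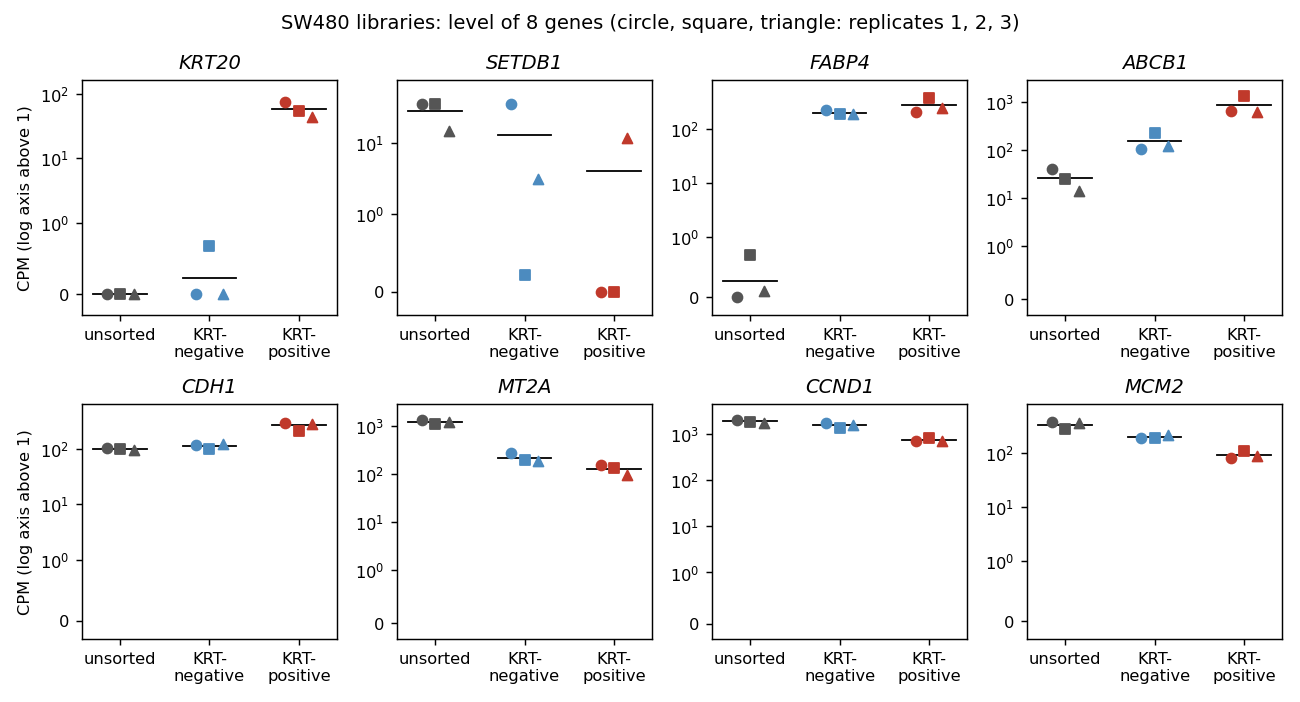
Points give the level of 8 genes in each SW480 library in CPM, on an axis that is logarithmic above 1, by group and with 1 symbol per replicate, and bars give group means. KRT20, FABP4, ABCB1 and CDH1 are higher in all KRT-positive than in all unsorted libraries, SETDB1, MT2A, CCND1 and MCM2 are lower, and FABP4 is also high in the KRT-negative libraries.

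Of 13252 genes tested, 460 (3.47%) were called at 5 percent FDR in edgeR's quasi-likelihood test. The calls were 252 higher (1.9%) and 208 lower (1.57%) in the KRT-positive libraries. The median log2 fold change was 0.03 over all tested genes, 2.04 over the genes called higher and -1.48 over those called lower. Differences of 16-fold or more were called for 65 genes that were higher and 9 that were lower. For 457 of the 460 called genes the 6 libraries did not overlap, against 3007 (22.7%) of all tested genes (10.4% higher, 12.3% lower). The shares over all tested genes are the background for the counts of list members. Leaving out unsorted library 1, 2 or 3 lowered the number of called genes to 260, 285 or 219. In such bulk libraries a change in the share of cells that express a gene and a change in RNA per cell cannot be told apart.

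**Figure D3:**
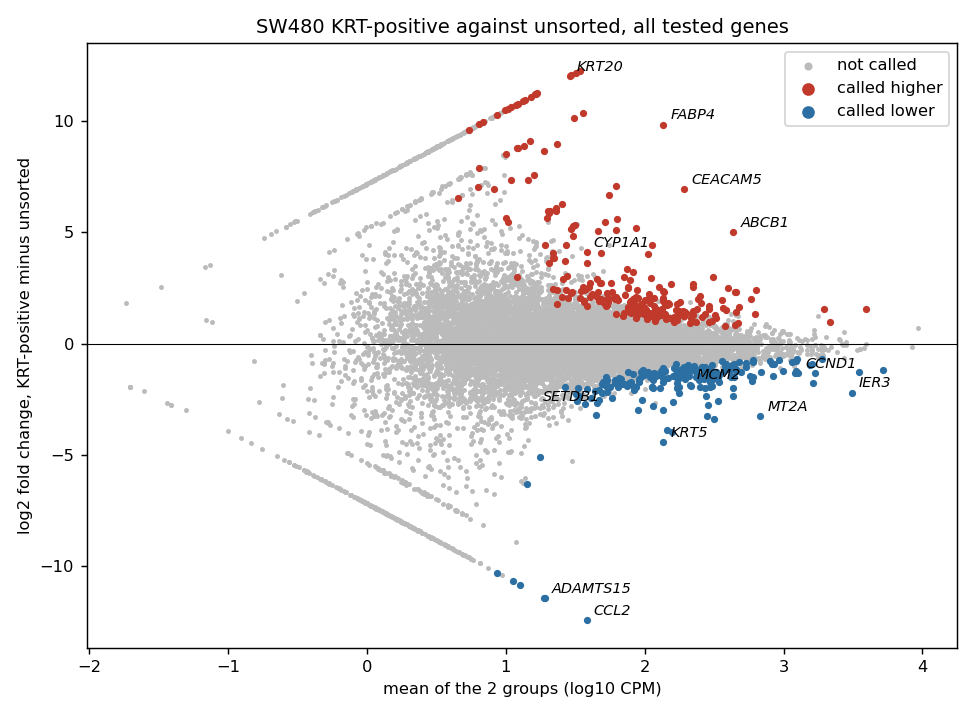
Each point is a tested gene, with the mean level of the 2 groups (log10 CPM) against the fitted log2 fold change, KRT-positive minus unsorted. Genes called higher (252) are red, genes called lower (208) blue and all others grey. The straight rays at the edges are genes with no count in 1 of the groups, and 7 genes at 0 in both groups are not drawn.

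The largest differences were genes with no count in 1 group, and the fold bounds given for them cover counting error only. UTS2B, which encodes a urotensin-like peptide hormone, was at 36.6, 106 and 60.97 CPM in the KRT-positive libraries and had no count in the unsorted libraries, so it was at least 542-fold higher (edgeR adjusted p = 0.00327). SLC38A4, an amino acid transporter, was at 72.4, 67.4 and 50.9 CPM against no count and at least 516-fold higher (edgeR adjusted p = 0.000692). MMP19, a matrix metalloproteinase, was at 53.9, 41.6 and 80.8 CPM against no count and at least 484-fold higher (edgeR adjusted p = 0.000105). In the KRT-negative libraries MMP19 was at 48.4, 50.5 and 19.3 CPM, SLC38A4 at 24.8, 2.56 and 16.1 CPM and UTS2B, mostly near the floor, at 0.108, 4.999 and 0.836 CPM. PPFIBP2, a liprin of cell adhesion sites, was at 13.8, 31.5 and 25.8 CPM in the KRT-positive and at 18.1, 33.2 and 32.6 CPM in the KRT-negative libraries, with no count in the unsorted libraries (at least 191-fold higher, edgeR adjusted p = 0.00163). SEMA5A, a semaphorin chosen after its values were seen, was at 45.4, 71.3 and 98.1 CPM in the KRT-positive libraries and held 1 count over the 3 unsorted libraries, a ratio of 1755 with a 95% counting interval from 315 to 69340.

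Another 7 of the 12 genes with the largest rises also had no count in any unsorted library, but each lost its call when 1 library or another was left out. ABCG1, a sterol exporter, was at 15.1, 24.3 and 61.3 CPM in the KRT-positive libraries. PIK3IP1, an inhibitor of phosphoinositide 3-kinase, was at 43.4, 22.3 and 25.3 CPM. With any 1 of the 3 unsorted libraries left out, the edgeR adjusted p rose to between 0.0739 and 0.0955 for ABCG1 and between 0.0692 and 0.0883 for PIK3IP1. The call of ABCG1 was also lost without KRT-positive library 3 (0.0894) and that of PIK3IP1 without KRT-positive library 1 (0.0632). SLC6A20, a transporter of proline, was at 45.9, 22.9 and 12.8 CPM and its call was lost when any 1 of the 6 libraries was left out (adjusted p 0.0604 to 0.142). The pseudogene ABCC6P1 was at 38.5, 37.9 and 2.96 CPM, and its call was lost without KRT-positive library 1 or 2 or any 1 unsorted library (0.0773 to 0.0987). Its tags may be shared with its parent gene, so its level is uncertain.

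Among the 12 largest falls, CCL2, a chemokine that attracts monocytes, had no count in the KRT-positive libraries. Its level was 69.7, 65.7 and 93.02 CPM in the unsorted and 18.6, 21 and 24.6 CPM in the KRT-negative libraries. By counting error alone it was at least 745-fold lower in the KRT-positive than in the unsorted libraries (edgeR adjusted p = 2.23e-05). ADAMTS15, a secreted metalloprotease of the matrix, was at 33.8, 58.5 and 22.3 CPM in the unsorted libraries against no count (at least 368-fold lower, edgeR adjusted p = 0.000374). ZCCHC24, a zinc finger gene, was at 20.04, 47.1 and 45.9 CPM against no count (at least 379-fold lower, edgeR adjusted p = 0.000692). In the KRT-negative libraries ADAMTS15 was at 31.5, 22.7 and 45.9 CPM and ZCCHC24 at 14.5, 22.8 and 21.6 CPM. Among the 9 SW480 libraries, the 2 genes were thus without a count only in the KRT-positive ones. FGF3, a fibroblast growth factor, fell 14.5-fold, from 338, 215 and 259 CPM to 20.4, 16.4 and 19.1 CPM (log2 fold change -3.86, SE 0.34, edgeR adjusted p = 2.73e-05). GJB1, the gap junction protein connexin 32, fell 10.4-fold, from 715, 366 and 650.3 CPM to 63.4, 64.7 and 39.03 CPM (log2 fold change -3.37, SE 0.35, edgeR adjusted p = 0.000152). The KRT-negative libraries lay between the other groups for both, at 82.6, 55.5 and 108 CPM for FGF3 and 163, 79.2 and 142 CPM for GJB1. ARID2, a subunit of a SWI/SNF chromatin remodelling complex, was at 0.102, 0.222 and 0.692 CPM against 22.4, 26.1 and 36.05 CPM (edgeR adjusted p = 0.00899, and 0.051 without unsorted library 3). MRVI1, SEMA6B, TNFRSF19, ISM1 and MT1E, also among the 12, each lost the call when 1 library or another was left out. Their highest edgeR adjusted p with 1 library left out ran from 0.0807 for ISM1 to 0.17 for SEMA6B.

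**Figure D4:**
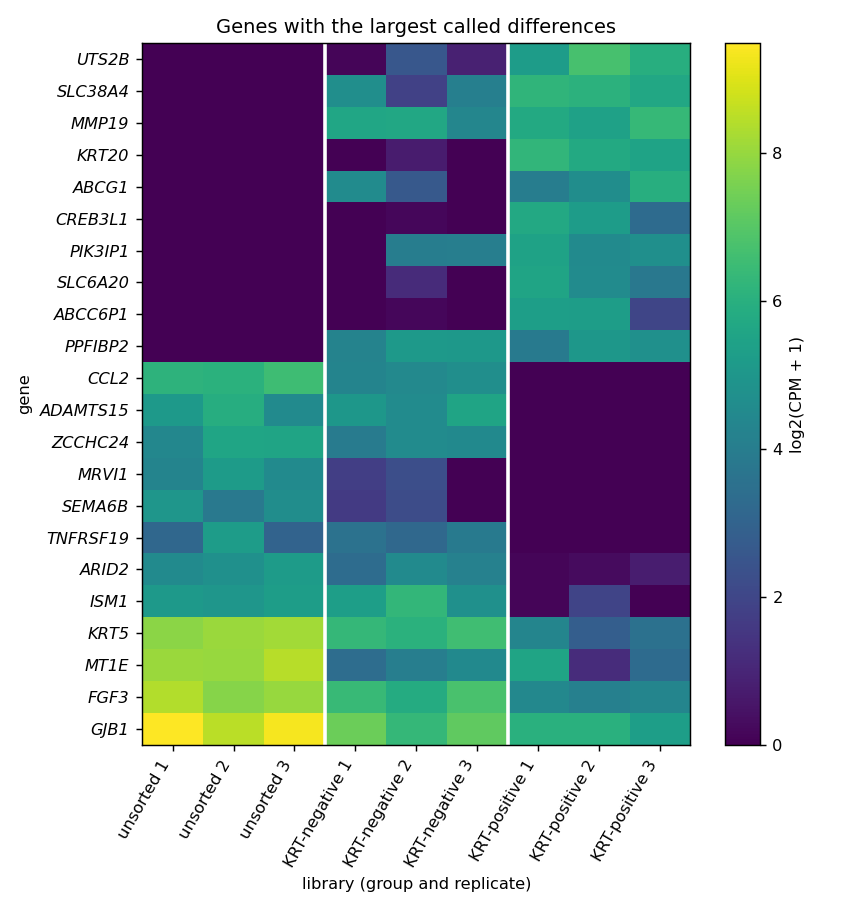
Colour gives log2(CPM + 1) in the 9 SW480 libraries for 10 of the 12 genes called higher and the 12 called lower with the largest fitted changes. All 10 of the upper block are at 0 in the unsorted libraries, and KRT-negative levels of these genes run from 0 to those of the KRT-positive libraries.

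Most epithelial keratin and junction genes were not called. Of 27 tested epithelial keratin and junction genes, 2 were called higher (CDH1, and KRT20 as the check of the labels) and 1 lower (KRT23, 4.21-fold). This was 11.1% called, against 3.47% of all tested genes. Without overlap 6 were higher and 7 lower, against 10.4% and 12.3% of all tested genes. The median log2 fold change was 0.16 beside 0.03 for all genes. EPCAM, an adhesion molecule of epithelia, was at 303, 284 and 248 CPM in the KRT-positive and 315, 327 and 342 CPM in the unsorted libraries and was not called (log2 fold change -0.24, edgeR adjusted p = 0.665). CDH1, which encodes E-cadherin of adherens junctions, rose 2.66-fold, from 105, 100.1 and 98.03 CPM to 299, 216 and 289.6 CPM (log2 fold change 1.41, SE 0.24, edgeR adjusted p = 0.00479). The 3 KRT-negative libraries were at 120.2, 100.6 and 121 CPM for CDH1, near the unsorted level. DSC2, a desmosomal cadherin outside the list that was chosen after its values were seen, rose 37.6-fold, from 1.196, 4.68 and 7.52 CPM to 134, 246 and 124 CPM (edgeR adjusted p = 0.000299). KRT5, a keratin of basal cells in stratified epithelia, is also outside the list. It fell 21.6-fold, from 228, 264 and 287 CPM to 19.1, 6.21 and 10.7 CPM (log2 fold change -4.43, SE 0.41, edgeR adjusted p = 4.51e-05). For both DSC2 and KRT5 the KRT-negative libraries were in between, at 48.5, 75.99 and 71.9 CPM for DSC2 and 78.1, 65.5 and 94.1 CPM for KRT5. Of the other gut keratins, KRT8, KRT18 and KRT19 had log2 fold changes of -0.67, -0.48 and -0.70, were lower in all KRT-positive libraries and were not called. With the replicate block or a term for replicate 2 all 3 were called lower (edgeR adjusted p = 0.0142 to 0.0259), as KRT8 and KRT19 were in DESeq2, and the 1 lower call of the list became 4 under each of these.

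Of 42 colonocyte and brush border genes, 17 had no count in the 6 libraries, and 14 passed the filter on low counts. Among those 14, 4 were called higher, against 1.9% of all tested genes, and 0 lower. Their median log2 fold change of 3.07 covers only genes that passed the filter, some of which passed through the KRT-positive group. CEACAM5, the carcinoembryonic antigen of the colonocyte surface, was at 182, 412 and 541 CPM against 9.27, 0.234 and 0.218 CPM, a rise of 117-fold (log2 fold change 6.93, SE 1.15, edgeR adjusted p = 0.00864). All 3 KRT-positive libraries were far above the highest unsorted library, and the KRT-negative libraries were at 40.01, 32.2 and 29.1 CPM. CEACAM1 was at 44.8, 30.1 and 72.6 CPM against 2.84, 4.33 and 4.03 CPM and CEACAM6 at 66.6, 26.2 and 43.1 CPM against 2.09, 0.117 and 0 CPM. DPP4, a brush border peptidase, was at 5.68, 60.5 and 56.7 CPM against 2.09, 0 and 0 CPM. Its mean was 45.6 CPM in the KRT-negative and 41.0 CPM in the KRT-positive libraries, so DPP4 was not particular to the KRT-positive sort. KRT-negative means were 10.8 CPM for CEACAM1 and 13.8 CPM for CEACAM6. These CEACAM genes are close relatives, and how tags were divided among relatives is not stated in the sources used here. The count of 4 fell to 2 without KRT-positive library 3 or unsorted library 2, and CEACAM5 had an adjusted p of 0.0763 with no low-count filter. CEACAM1 lost its call without KRT-positive library 3 (0.0807) or unsorted library 1 (0.0527), CEACAM6 without KRT-positive library 1 (0.0699) or unsorted library 2 (0.0659), and DPP4 without any 1 library other than KRT-positive library 1 or unsorted library 1 (0.0513 to 0.0964). Of genes for other lineages of the gut, REG3A, a secreted antimicrobial lectin, was at 76.8, 30.04 and 33.5 CPM and held 2 counts over the unsorted libraries (ratio 576, 95% counting interval from 159 to 4759). REG3A was the 1 called of 4 tested tuft and Paneth genes, whose median log2 fold change was 0.76. The enteroendocrine list had 1 of 7 tested members called higher and a median of -0.24. That 1 call was lost without KRT-positive library 2 or any 1 unsorted library. The goblet list had 7 tested members, of which 1 was called higher, CREB3L1 at 52.2, 36.6 and 8.99 CPM with no count in the unsorted libraries. CREB3L1 lost its call without KRT-positive library 1 (edgeR adjusted p = 0.0751). These lists of other gut lineages had too few tested genes to be set apart from the 1.9% of all tested genes called higher.

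Targets of the fatty acid receptors of the PPAR family were the list with the most genes called higher. Of 23 tested members, 7 were called higher, against 1.9% of all tested genes, and 0 lower. Of the 23, 14 were higher in all KRT-positive than in all unsorted libraries, against 10.4% of all tested genes, and the median log2 fold change was 1.29. FABP4, a fatty acid carrier of fat cells, was at 207, 361 and 246 CPM in the KRT-positive libraries and at 0, 0.701 and 0.109 CPM in the unsorted libraries (log2 fold change 9.83, SE 0.61, edgeR adjusted p = 3.09e-06). It had the smallest adjusted p of the list, and it was also high in the KRT-negative libraries, at 218, 188 and 187 CPM. TXNIP, an inhibitor of thioredoxin and of glucose uptake, rose 5.76-fold, from 37.98, 30.5 and 43.03 CPM to 131, 241 and 272 CPM (log2 fold change 2.53, SE 0.30, edgeR adjusted p = 0.000404). ANGPTL4, a secreted inhibitor of lipoprotein lipase, was at 387, 344 and 409 CPM against 109.6, 10.9 and 72.4 CPM (edgeR adjusted p = 0.0243). PDK4, a kinase that restrains glucose oxidation, was at 86.8, 54.98 and 43.3 CPM against 11.7, 19.2 and 3.92 CPM (edgeR adjusted p = 0.0419). CREB3L3, a transcription factor of lipid metabolism in liver and gut, was at 8.12, 26.4 and 17.6 CPM with no unsorted count (edgeR adjusted p = 0.00946). In the KRT-negative libraries ANGPTL4 was at 439, 333 and 562 CPM, PDK4 at 54.9, 111 and 40.4 CPM and CREB3L3 at a mean of 18 CPM. The list summed to 3268, 3451 and 4210 CPM in the KRT-positive and 3640, 3368 and 3511 CPM in the KRT-negative libraries. In the unsorted libraries it summed to 2071, 1720 and 1879 CPM, so the higher level was not particular to the KRT-positive libraries. The labels do not say whether any of these libraries had troglitazone in the medium, and its part was not tested. ANGPTL4 lost its call without any 1 KRT-positive library, unsorted library 3 or KRT-negative library 1 or 2 (0.0524 to 0.114), and PDK4 without KRT-positive library 1, unsorted library 1 or 3 or KRT-negative library 1 or 3 (0.0526 to 0.135). The count of 7 fell to 4 without unsorted library 3 and to 3 with only the 6 libraries in the fit.

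PPARG, the receptor that directs fat cell genes, was at 64.6, 219.8 and 42.9 CPM against 0.149, 2.92 and 0 CPM, with KRT-positive library 2 the highest (log2 fold change 6.69, SE 1.25, edgeR adjusted p = 0.0101). Its adjusted p was 0.0725 without unsorted library 1 and 0.0958 with no low-count filter. LIPE, hormone-sensitive lipase, rose 10.1-fold, from 13.8, 11.9 and 14.7 CPM to 108, 178 and 124 CPM (edgeR adjusted p = 0.000124). MGLL, monoglyceride lipase, rose 7.63-fold, from 21.1, 18.9 and 36.6 CPM to 253, 133 and 199 CPM (edgeR adjusted p = 0.000526). Of the insulin pathway, IRS2, an adaptor of the insulin receptor, rose 4.02-fold, from 249.6, 236 and 210 CPM to 1006, 647 and 1146 CPM (edgeR adjusted p = 0.000349). FOXO1, a transcription factor that insulin signalling keeps out of the nucleus, rose 7.15-fold, from 27.8, 21.5 and 8.61 CPM to 144, 112 and 158 CPM (edgeR adjusted p = 0.00226). The KRT-negative libraries were above the unsorted range too, with LIPE at 118, 113 and 80.7 CPM, MGLL at 122, 153 and 176 CPM, IRS2 at 947, 735 and 939.8 CPM and FOXO1 at 127, 77.4 and 86.1 CPM. PPARG and these 4 genes belong to no list and were chosen after their values were seen.

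Of 22 tested targets of the vitamin D receptor VDR, 2 were called higher (9.09%, against 1.9% of all tested genes) and 0 lower, 4 were higher and 6 lower in all KRT-positive libraries, and the median log2 fold change was -0.04. CYP24A1, the vitamin D hydroxylase that VDR induces, was at 119.5, 83.02 and 75.1 CPM in the KRT-positive and 91.5, 178 and 67.9 CPM in the unsorted libraries, with overlapping ranges (edgeR adjusted p = 0.786). The KRT-negative libraries were at 731, 783 and 563 CPM for CYP24A1, above all others, a comparison not tested here. The members called higher were CDH1 and ATP2B1, a calcium pump of the plasma membrane, which rose 3.54-fold, from 43.4, 80.7 and 61.1 CPM to 149.8, 307 and 199.5 CPM (edgeR adjusted p = 0.00841). STIM1, the calcium sensor of the endoplasmic reticulum, is outside the list and was chosen after its values were seen. It was at 695, 633 and 686 CPM against 168, 46.6 and 143 CPM, and the KRT-negative libraries were at 105, 118 and 134 CPM (edgeR adjusted p = 0.00183). VDR itself had a log2 fold change of -1.02 and was not called.

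Lists of ABC transporters and of aryl hydrocarbon receptor targets were added after values were seen. Of 10 tested targets of this receptor, 2 were called higher and 1 lower, against 1.9% and 1.57% of all tested genes, with a median log2 fold change of 0.37. The list summed to 310, 402 and 402 CPM in the KRT-positive against 492, 489.9 and 420.1 CPM in the unsorted libraries. ABCB1 (GRCh38 chromosome 7, 87503633 to 87713323, minus strand), the P-glycoprotein pump of the gut surface, was at 644, 1279 and 605 CPM in the KRT-positive and 40.4, 24.9 and 13.8 CPM in the unsorted libraries. It rose 31.96-fold (log2 fold change 5.00, SE 0.48, edgeR adjusted p = 6.06e-05), and the KRT-negative libraries were in between at 101.1, 225 and 119 CPM. CYP1A1, the oxidase that this receptor induces, rose 17.3-fold, from 2.24, 5.38 and 4.902 CPM to 66.6, 56.8 and 92.9 CPM (log2 fold change 4.10, SE 0.48, edgeR adjusted p = 0.000387), and was at 79.7, 106 and 62.9 CPM in the KRT-negative libraries. The CYP1A1 promoter is shown with the receptor's core letters GCGTG on either strand in capitals (RefSeq, GRCh38.p14, chr15:74725479-74725778, minus strand).
CYP1A1: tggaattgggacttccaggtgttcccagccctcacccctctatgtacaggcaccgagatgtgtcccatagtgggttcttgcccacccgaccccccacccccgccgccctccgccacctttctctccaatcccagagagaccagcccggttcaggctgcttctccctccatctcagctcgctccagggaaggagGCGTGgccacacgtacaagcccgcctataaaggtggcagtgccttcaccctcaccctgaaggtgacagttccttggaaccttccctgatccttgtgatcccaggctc
It holds 1 match, and 36.5% of 35116 promoters hold at least 1. ALDH1A3, which makes retinoic acid, fell 7.85-fold, from 157, 173 and 146 CPM to 28.3, 14.96 and 17.4 CPM (edgeR adjusted p = 0.00976). CYP1A2, the neighbour of CYP1A1, was at 9.34, 10.1 and 40.1 CPM with no unsorted count, and its call was lost without KRT-positive library 3 (edgeR adjusted p = 0.109) or any 1 unsorted library (0.0675 to 0.0825). Of 11 tested ABC transporters, 3 were called higher, against 1.9% of all tested genes, and 0 lower. The count of 3 fell to 1 without unsorted library 2 or 3.

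Of 25 tested stem cell and Wnt target genes, 0 were called higher and 9 lower (1.57% of all tested genes were called lower). With the replicate block, a term for replicate 2, DESeq2, no low-count filter or library totals, and without KRT-positive library 2, 1 member was called higher. Of the 25, 13 were lower in all KRT-positive libraries, against 12.3% of all tested genes, and the median log2 fold change was -1.26. CCND1, cyclin D1, fell 2.52-fold, from 1984, 1797 and 1709 CPM to 706, 782 and 694 CPM (log2 fold change -1.33, SE 0.17, edgeR adjusted p = 0.000596). ASCL2, the transcription factor of crypt stem cells, fell 3.45-fold, from 327, 207 and 254 CPM to 83.8, 77.9 and 66.6 CPM (log2 fold change -1.79, SE 0.28, edgeR adjusted p = 0.00316). In the KRT-negative libraries CCND1 was at 1669, 1292 and 1520 CPM, just under the unsorted range, and ASCL2 at 112, 72.9 and 74.9 CPM, near the KRT-positive range. APCDD1, which binds Wnt proteins at the membrane, fell 4.65-fold, from 261, 305 and 302 CPM to 73.3, 62.4 and 51.1 CPM (edgeR adjusted p = 0.000385). NKD1, which binds Dishevelled, fell 5.95-fold, from 567, 552 and 607 CPM to 32.6, 133 and 124 CPM (edgeR adjusted p = 0.00255). AXIN2, a scaffold of beta-catenin destruction, fell 2.77-fold (edgeR adjusted p = 0.0151, and 0.063 without unsorted library 2 or 0.0663 with replicate 2 left out of all groups). The KRT-negative libraries held APCDD1 at 53.6, 65.7 and 60.7 CPM and NKD1 at 168, 156 and 157 CPM. Of transcription factors, SOX9, which marks crypt progenitors, fell 3.91-fold, from 409, 626 and 372 CPM to 140, 53.2 and 167 CPM (edgeR adjusted p = 0.00784). SP5, a direct Wnt target, fell 3.895-fold, from 291, 261 and 292 CPM to 81.1, 30.8 and 105 CPM (edgeR adjusted p = 0.00861). In both genes KRT-positive library 2 was the lowest.

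Genes of cell division and of DNA replication were called in the lower direction only. Of 33 tested genes of mitosis, 5 were called lower, against 1.57% of all tested genes, and 19 were lower in all KRT-positive libraries, against 12.3%, with a median log2 fold change of -1.25. Of 38 tested genes of DNA replication, 8 were called lower and 18 were lower in all KRT-positive libraries (the same shares of all genes apply), with a median of -0.92. AURKB, a kinase of chromosome segregation, fell 3.78-fold, from 556, 399 and 482 CPM to 179, 102 and 98.4 CPM (log2 fold change -1.92, SE 0.28, edgeR adjusted p = 0.00161). UBE2C, the ubiquitin-conjugating enzyme of mitotic exit, fell 3.27-fold, from 609.7, 432 and 529 CPM to 156, 173 and 153 CPM (log2 fold change -1.71, SE 0.24, edgeR adjusted p = 0.0013). MCM2, a subunit of the replicative helicase, fell 3.59-fold, from 362, 277 and 352 CPM to 78.9, 109 and 88.2 CPM (log2 fold change -1.85, SE 0.23, edgeR adjusted p = 0.000666). In all 3 genes each KRT-positive library was under each unsorted library and the KRT-negative libraries lay in between, at 312, 229.7 and 324 CPM for AURKB, 309.8, 187 and 268 CPM for UBE2C and 190.3, 189.9 and 210.2 CPM for MCM2. MCM7, of the same helicase, fell 2.43-fold, and TYMS, thymidylate synthase, fell 3.96-fold (edgeR adjusted p = 0.00857 and 0.00294). Not every proliferation gene moved with them: MKI67, the Ki-67 antigen, was at 102, 340.2 and 119 CPM against 235, 345 and 169 CPM, with overlapping ranges (edgeR adjusted p = 0.747). The mitosis count fell to 3 without KRT-positive library 3 or unsorted library 2 and to 2 without unsorted library 3. The replication count fell to 5 without KRT-positive library 1 or 3 or any 1 unsorted library. CDK6, a kinase of G1 that was chosen after its values were seen, went the other way and rose 3.19-fold, from 93.3, 186 and 138 CPM to 499, 483 and 350.5 CPM (edgeR adjusted p = 0.00405), and it was at 551, 877 and 707 CPM in the KRT-negative libraries.

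**Figure D5:**
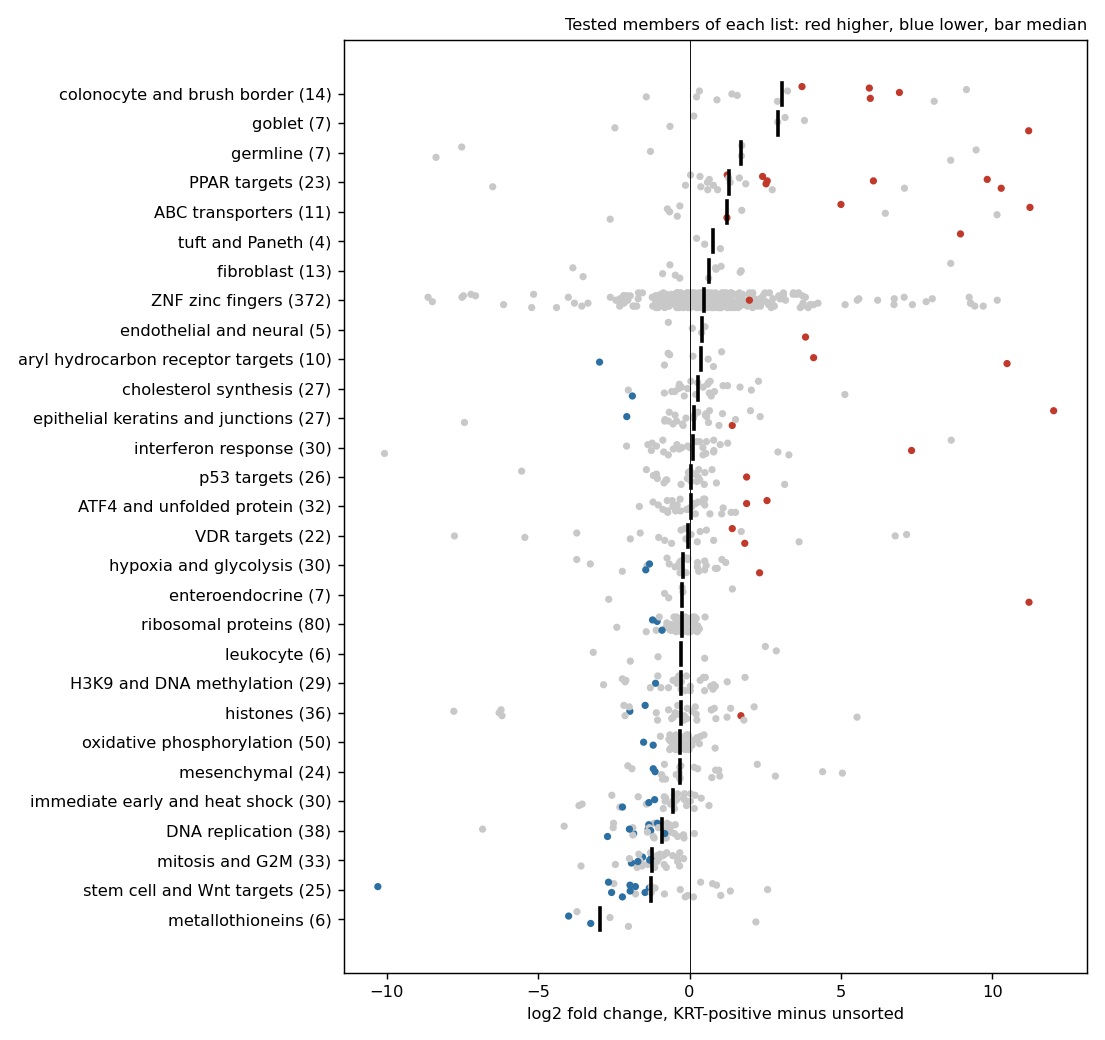
Points give fitted log2 fold changes, KRT-positive minus unsorted, for the tested members of each gene list with at least 3 tested members (number in brackets). Red members were called higher, blue ones lower, grey ones neither, and bars mark list medians, which run from -2.95 for the metallothioneins to 3.07 for the colonocyte genes that passed the filter.

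The most abundant metallothionein gene fell. MT2A (GRCh38 chromosome 16, 56608199 to 56609497, plus strand), a metallothionein that binds zinc and copper, was at 154, 132 and 96.7 CPM in the KRT-positive and 1323, 1122 and 1238 CPM in the unsorted libraries. It fell 9.61-fold (log2 fold change -3.26, SE 0.25, edgeR adjusted p = 1.43e-05), and the KRT-negative libraries were at 281, 197 and 185 CPM. The MT2A promoter is shown because metallothioneins are induced through repeated metal response elements, whose core TGCNCNC is in capitals where found on either strand (RefSeq, GRCh38.p14, chr16:56608334-56608633, plus strand).
MT2A: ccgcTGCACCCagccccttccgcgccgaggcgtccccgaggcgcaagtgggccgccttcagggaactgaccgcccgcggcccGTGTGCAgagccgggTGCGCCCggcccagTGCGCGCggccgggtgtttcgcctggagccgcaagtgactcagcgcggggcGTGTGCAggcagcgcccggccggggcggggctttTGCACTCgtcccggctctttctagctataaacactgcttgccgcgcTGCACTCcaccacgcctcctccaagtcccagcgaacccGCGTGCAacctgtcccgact
It holds 8 matches, and 55.9% of 35116 promoters hold at least 1. Of the 6 tested metallothioneins, a list chosen after values were seen, 2 were called lower and 5 were lower in all KRT-positive libraries, against 1.57% and 12.3% of all tested genes, and the median log2 fold change was -2.95. MT1E, the other called member, was at 44.98, 1.33 and 8.89 CPM against 267, 261 and 352 CPM (edgeR adjusted p = 0.0248), and its call was lost without any 1 of the KRT-negative or unsorted libraries or KRT-positive library 3 (adjusted p 0.0547 to 0.116). Metallothionein genes are near-identical in places, so the division of tags between them is uncertain.

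Of 30 tested immediate early and heat shock genes, 0 were called higher and 3 lower, 14 were lower in all KRT-positive libraries, against 1.57% called lower and 12.3% without overlap among all tested genes, and the median log2 fold change was -0.53. IER3, an early response gene of growth factor and NF-kappaB signalling, fell 4.64-fold, from 6834, 3799 and 4652 CPM to 1032, 795 and 1467 CPM (log2 fold change -2.21, SE 0.30, edgeR adjusted p = 0.000994). The count of 3 fell to 1 without unsorted library 1 or 3. TNFAIP2, another gene induced by tumour necrosis factor, fell 5.09-fold, from 454, 470.5 and 464 CPM to 81.3, 89.01 and 102 CPM (edgeR adjusted p = 3.39e-05). NGFR, the low-affinity nerve growth factor receptor, fell 7.86-fold, from 269.9, 232 and 215 CPM to 19.2, 30.6 and 41.4 CPM (edgeR adjusted p = 0.000244). TNFAIP2 and NGFR were chosen after their values were seen, and in the KRT-negative libraries TNFAIP2 was at 391.9, 388 and 313 CPM and NGFR at 239.8, 144 and 179.5 CPM. DDIT3, the stress transcription factor CHOP, moved the other way and rose 5.89-fold, from 29.01, 15.4 and 21.7 CPM to 91.3, 158 and 139.8 CPM (log2 fold change 2.56, SE 0.36, edgeR adjusted p = 0.00127). The list of ATF4 and unfolded protein genes to which DDIT3 belongs had 2 of 32 tested members called higher, 0 lower and a median of 0.04. This was 6.25% called, against 3.47% of all tested genes. The second called member, SESN2, was at 70.05, 46.6 and 54.5 CPM against 23.5, 12.6 and 10.2 CPM, and its adjusted p passed 0.05 without KRT-positive library 1 or 3, unsorted library 2 or 3 or any 1 KRT-negative library (0.0565 to 0.164).

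The glucose transporters SLC2A1 and SLC2A3 fell, and the rest of the hypoxia and glycolysis list was mixed. SLC2A1, the GLUT1 transporter, fell 2.501-fold, from 505, 449 and 438 CPM to 129, 235 and 192 CPM (edgeR adjusted p = 0.00841). SLC2A3, the GLUT3 transporter, fell 2.72-fold, from 650.4, 531 and 663 CPM to 203, 252 and 222 CPM (edgeR adjusted p = 0.0012). ADM, which encodes the peptide adrenomedullin, rose 4.97-fold, from 26.02, 13.4 and 18.9 CPM to 70.9, 117 and 103 CPM (edgeR adjusted p = 0.00471). In all, 1 of 30 tested members of this list was called higher and 2 lower (10% called, against 3.47% of all tested genes), with a median of -0.20. Of 80 tested ribosomal protein genes, 0 were called higher and 3 lower (3.75% called, near the 3.47% of all tested genes). Of the 80, 31 were lower in all KRT-positive libraries, against 12.3% of all tested genes, with a median of -0.26. The lower calls numbered 15 with the replicate block, 16 with a term for replicate 2 and 14 in DESeq2. RPL10A, a protein of the large ribosomal subunit, fell 2.097-fold, from 614, 560 and 524 CPM to 246, 302 and 263 CPM (edgeR adjusted p = 0.00787). Of 36 tested histone genes, 1 was called higher and 2 lower (8.33% called, against 3.47% of all tested genes). H2AFJ rose 3.24-fold, from 55.8, 52.3 and 56.6 CPM to 240.4, 135 and 159 CPM, and HIST1H4C fell 2.76-fold, from 374, 308 and 227 CPM to 104, 127 and 99.1 CPM (edgeR adjusted p = 0.00673 and 0.0061). H2AFX, the histone variant of DNA damage foci, fell 3.92-fold (edgeR adjusted p = 0.00787). Canonical histone transcripts mostly lack a poly(A) tail, so a 3′ tag assay sees only part of them.

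Of 529 ZNF zinc finger genes, which SETDB1 marks at their clusters, 372 were tested, 1 was called higher and 0 lower (0.269% against 3.47% of all tested genes), and the median log2 fold change was 0.47. That gene, ZNF91, a repressor of retrotransposons, was at 65.6, 136 and 107 CPM against 13.3, 43.8 and 21.4 CPM. Its adjusted p in edgeR was 0.0387, and it passed 0.05 without KRT-positive library 2 or 3, unsorted library 1 or 3 or KRT-negative library 1 or 2 (0.051 to 0.147). Summed over the list, ZNF genes were at 8480, 9650 and 8831 CPM in the KRT-positive and 7791, 7990 and 7504 CPM in the unsorted libraries, which do not overlap. Of 53 clustered protocadherins, 46 had no count in the 6 libraries and 2 were tested, with none called. Of 34 germline genes, which silent chromatin keeps off in somatic cells, 7 were tested and none was called, too few tested genes to set either list apart from the 3.47% of all genes. Among 30 tested interferon response genes, 1 was called higher and 0 lower (3.33% called, near the 3.47% of all tested genes). It was OASL, a sensor-like gene of the antiviral response, at 29.8, 36.5 and 20.5 CPM against 0.149, 0.351 and 0 CPM (log2 fold change 7.33, SE 1.15, edgeR adjusted p = 0.00294). OASL was at 32.8, 18.6 and 24.7 CPM in the KRT-negative libraries. The median of the interferon list was 0.12, and IFI27, another interferon gene, had no count in the KRT-positive libraries against 12.4, 12.6 and 19.7 CPM in the unsorted libraries (edgeR adjusted p = 0.093, not called). Of 29 tested genes of H3K9 and DNA methylation, 0 were called higher and 1 lower (3.45% called, near the 3.47% of all tested genes). This was DNMT1, the maintenance DNA methyltransferase, at 175, 117 and 139.8 CPM against 317, 278 and 347 CPM (edgeR adjusted p = 0.0271). Its adjusted p passed 0.05 without KRT-positive library 2 or 3 or unsorted library 1 or 3 (0.0594 to 0.122).

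Lists of cholesterol synthesis, p53 targets, oxidative phosphorylation and mesenchymal genes had 3.7% to 8.33% of tested members called, against 3.47% of all tested genes. Of 27 tested genes of cholesterol synthesis 1 was called lower, of 26 tested p53 targets 1 higher and of 50 tested genes of oxidative phosphorylation 2 lower, with medians of 0.27, 0.04 and -0.30. Of 24 tested mesenchymal genes 0 were called higher and 2 lower (8.33% called). FN1, fibronectin, was among them, at 288, 198 and 303 CPM against 660.2, 414 and 663 CPM. It lost its call without any 1 KRT-positive library, unsorted library 1 or 3 or KRT-negative library 1 or 3 (edgeR adjusted p = 0.0579 to 0.16), and without unsorted library 3 the count of 2 was 0. Leukocyte markers were low in every library. Of 18 leukocyte genes, 10 had no count in the 6 libraries, 6 were tested and none was called, and the list summed to 14.1 to 50.9 CPM in the KRT-positive and 41.0 to 49.9 CPM in the unsorted libraries. Of 19 fibroblast genes, 13 were tested and none was called, and most of their summed level was S100A4, which epithelial cancer cells also express, at 1670, 1117 and 2221 CPM against 2596, 1418 and 2245 CPM. At an unadjusted p under 0.05 edgeR had 3 of 7 germline, 0 of 2 protocadherin, 1 of 6 leukocyte and 2 of 13 fibroblast genes. Over all tested genes it had 2238 of 13252. DESeq2 called 2 of the 7 germline genes higher and none of the other 3 lists, against 668 higher and 527 lower of all 13252. Of 18 endothelial and neural genes, 5 were tested and 1 was called higher, the adhesion gene ESAM. This was 20% called, against 3.47% of all tested genes. ESAM was at 59.6, 14.5 and 50.9 CPM against 1.79, 5.96 and 0.9803 CPM (edgeR adjusted p = 0.0378). Its adjusted p was 0.0553 to 0.138 without KRT-positive library 1 or 3, unsorted library 1 or 3 or KRT-negative library 1 or 3. The leukocyte, fibroblast and endothelial and neural lists had too few tested genes to be set apart from the 3.47% of all tested genes.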

How the data were processed

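QuantSeq 3′ tag libraries were deposited by the authors as 1 table of raw counts per gene symbol and library, and the values were checked to be whole numbers. The submitters' processing notes name Bowtie2, edgeR and hg19 without versions. The rule for tags that match several genes is not given in the sources used here. Each table has 25737 lines, of which 1561 repeat one of 286 symbols. These were summed to 24462 symbols.

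All 9 SW480 libraries were fitted together with R 4.3.3 and edgeR 4.0.16 (TMM scaling, filterByExpr, robust quasi-likelihood F test, group as the only term), since 3 groups give a better estimate of the spread. Genes were called at 5 percent FDR over the 13252 tested. The SE of a log2 fold change was taken from F (change over root F), and fold changes are ratios of mean CPM. Bounds for a group at 0 use 3 counts over the group, and ratios to 1 to 3 counts have a 95 percent interval. Both cover counting error only and not the spread between libraries. On simulated counts of 13252 genes the fit recovered 0 of 100 changes of 2-fold and 32 of 100 of 4-fold, with 1 unchanged gene called, so smaller changes can go uncalled. The simulation gave all groups the same dispersion per gene and no shared replicate effect. It therefore does not measure false calls in these libraries.

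Named genes are KRT20 and SETDB1, up to 12 called genes per direction with the largest change, no overlap and 10 CPM or more in the higher group, and the 4 members of each list with the smallest p and at least 10 CPM. All other genes the text names, in lists or outside them, were chosen after their values were seen. Not all are printed, and some genes are not reported here. The 27 lists, the members compared and the rule were chosen with earlier results of these data known, and 3 lists (metallothioneins, aryl hydrocarbon receptor targets, ABC transporters) were added after values were seen. Lists are described by counts and medians, with no test. Same-numbered libraries of the 2 groups had correlations of their deviations of 0.075, 0.265 and 0.032, so the numbers were not taken to pair them. Replicate 2 did share deviations across the 3 groups, with correlations of 0.265 to 0.328 between groups. The main fit has no term for this. A term for replicate 2 kept all 460 calls of the main fit and gave 887, so some genes not called here are called with it. Alternatives were RLE factors, unscaled library totals, DESeq2 1.42.0, no low-count filter, a replicate block, a term for replicate 2, leaving replicate 2 out of every group, only the 6 libraries, and each of the 9 libraries left out. Gene positions come from GENCODE 29 (GRCh38), since hg19 annotation was not used here.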

Additional observations from a re-analysis of the deposited data

How the results depend on the processing

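All 460 calls kept their direction under the alternatives in which the gene was tested (458 of them with only the 6 libraries in the fit). The number of called genes was 456 with RLE factors, 486 with library totals and 509 with no low-count filter. It was 1195 in DESeq2 (668 higher, 527 lower), 793 with the replicate block (400 higher, 393 lower, 447 shared with the 460), and 887 with a term for replicate 2 (450 higher, 437 lower). It was 228 with only the 6 libraries (121 higher, 107 lower) and 238 with replicate 2 left out of all 3 groups (122 higher, 116 lower). With each library left out in turn it ran from 219 to 510, with 133 to 244 higher and 86 to 266 lower. The replicate block is not evidence of pairing: KRT-positive library 3 correlated best with unsorted library 1. Of 112 called genes among those named or considered for naming, 60 were called under all 17 alternatives. With replicate 2 left out of all groups, and under no other alternative, the call was lost for ADM (adjusted p = 0.0585), ALDH1A3 (0.13), FEN1 (0.0597), GINS2 (0.0788), H2AFX (0.0894), KRT23 (0.0701) and RPS25 (0.0526) in edgeR. Counts of ribosomal protein genes called lower rose from 3 to 15 with the block and to 14 in DESeq2, and those of mitosis genes from 5 to 10 and 8.

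Genes that were not called changed sign in places. The log2 fold change of DEFA5 was -0.21 with the block, -1.87 without KRT-positive library 1 and -0.11 without unsorted library 1. That of SNAP25 was -0.09 with the block and -1.9 without KRT-positive library 1. SYP was at 0.05 and CYP24A1 at 0.29 with replicate 2 left out of all groups, and CYP24A1 at 0.21 without unsorted library 2. TUBB3 was at -0.21 without KRT-positive library 2 and -0.17 without unsorted library 3. With each library left out in turn, the highest values were 0.93 for DEFA5, 0.97 for SNAP25 and 0.43 for TUBB3, and the lowest for CYP24A1 was -0.54. The cause was not tested. With 3 libraries a group and KRT-positive libraries that differ more among themselves than the unsorted ones, changes of 2-fold are often not detectable here, although 32 of the 460 called genes changed by less.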

Other observations

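Some of the best separated genes belonged to no list and were chosen after their values were seen. SERPINE2, a secreted inhibitor of serine proteases, rose 8.05-fold, from 57.6, 90.2 and 58.7 CPM in the unsorted to 569, 571 and 524 CPM in the KRT-positive libraries (log2 fold change 3.01, SE 0.24, edgeR adjusted p = 1.75e-05). TM4SF1, a membrane protein of the tetraspanin-like family, rose 3.56-fold, from 109.6, 100.4 and 122 CPM to 359, 366 and 456 CPM (edgeR adjusted p = 0.000666). CD55, which protects cells from complement, rose 48.9-fold, from 3.44, 4.09 and 0.109 CPM to 95.6, 163 and 115 CPM (edgeR adjusted p = 0.0013). The KRT-negative libraries were in between for all 3 genes, at 185, 208 and 228 CPM for SERPINE2, 187, 261 and 198 CPM for TM4SF1 and 35.7, 40.5 and 40.9 CPM for CD55. APOE, the lipid carrier apolipoprotein E, rose 6.57-fold, from 17.5, 10.4 and 9.91 CPM to 96.04, 74.5 and 77.8 CPM (edgeR adjusted p = 0.00168). HSD3B1, an enzyme of steroid hormone synthesis, rose 21.4-fold, from 9.57, 0.935 and 19.7 CPM to 237, 169 and 241 CPM (edgeR adjusted p = 0.00323). For APOE and HSD3B1 the KRT-negative libraries, at 68.3, 67.2 and 59.9 CPM for APOE and 214, 182 and 158 CPM for HSD3B1, were also above the unsorted ones.

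Some genes with near-identical copies were also chosen after their values were seen. HBA2, an alpha globin gene, was at 58.6, 47.7 and 78.2 CPM in the KRT-positive libraries and held 1 count over the unsorted libraries (ratio 1515, 95% counting interval from 272 to 59860, edgeR adjusted p = 2.21e-05). Its copy HBA1 was at 12.9, 16.3 and 6.32 CPM against 0, 3.86 and 0.109 CPM and was not called, so how globin tags were divided is uncertain. PRR20D, 1 of a set of near-identical proline-rich genes, was at 145, 85.3 and 129 CPM against 3.74, 4.44 and 2.18 CPM and at 379, 287 and 354 CPM in the KRT-negative libraries (edgeR adjusted p = 7.97e-06). The copies PRR20A, PRR20C and PRR20E had fold changes of 39.4, 41.5 and 28.7, and the members cannot be counted apart. SNAR-C3, of a family of small noncoding RNAs, was at 649, 916 and 669 CPM against 133, 223 and 93.5 CPM (edgeR adjusted p = 0.0008).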
